A study of Homo sapiens with 3 samples.

Results

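Transcripts of 10 RNA-binding motif (RBM) genes were examined for contact with RBM17. The cells were K562, a long-established line from a chronic myelogenous leukemia, and the assay was eCLIP. The genes were RBM3, RBM4, RBM5, RBM6, RBM10, RBM15, RBM23, RBM25, RBM39 and RBM41, which are RBM genes other than RBM17 itself, out of 10872 genes with a cluster of reads in replicate 2. In eCLIP, ultraviolet light fixes a protein to the RNA it touches, an antibody pulls the protein down, and the attached RNA fragments are sequenced. There were 2 RBM17 libraries, made with a mixture of a pair of RBM17 antibodies, and 1 size-matched input, a portion set aside before the washes. All came from this 1 line, and the study calls the RBM17 libraries biological replicates. A gene was followed through the stretch from its first to its last replicate 2 cluster, called its span here, and replicate 1 clusters and reproducible peaks were assigned to it when they overlapped that span on the same strand. The positions of clusters and peaks are given in hg19.

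RBM17, also known as SPF45, is a splicing factor that takes part in the choice of 3’ splice sites and binds proteins of the U2 snRNP and U2AF. The RBM genes share RNA recognition motifs but act at different steps. RBM39, RBM5, RBM6, RBM10 and RBM25 regulate alternative splicing, RBM15 belongs to the complex that methylates adenosines in mRNA, RBM41 is tied to the minor spliceosome, and RBM3 is induced by cold. Many transcripts of splicing regulators can include poison exons, which carry a premature stop codon and send the transcript to nonsense-mediated decay (NMD).

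To show what such an exon looks like in these genes, the GENCODE v44 annotation (hg38) was searched for internal exons of NMD transcripts that lie inside an intron of the canonical transcript and hold the stop codon. RBM39 had 6 of them, and RBM5 and RBM25 had 1 each, so that 3 of the 10 genes had such an exon, against 23.4% of all protein coding genes with a replicate 2 cluster and 30.2% of those with at least 63 replicate 2 reads. This share is near the background. Of the RBM39 exons, one of 73 bp in intron 2 was part of the most annotated transcripts, 9, of which 8 are NMD transcripts that stop in it. How often K562 cells include it was not measured. The RBM25 exon (105 bp, intron 6) belonged to 1 NMD transcript. Each sequence below starts with 20 bases of the intron and ends with the stop codon, which is in capitals. The RBM39 sequence lies on chr20:35740526-35740617 (hg38, − strand) and that of RBM25 on chr14:73088350-73088379 (+ strand).
RBM39: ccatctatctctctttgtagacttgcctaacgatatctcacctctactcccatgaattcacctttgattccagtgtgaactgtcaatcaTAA
RBM25: tgttggtttgcttgttccaggttgggaTGA
Both introns end in ag before the exon. The RBM39 exon runs through 72 bases to the end of its stop codon and that of RBM25 through 10. The distance from these exons to the eCLIP clusters was not measured, because the builds differ.

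Replicate 1 was deposited as 137095 clusters with a log2 fold and a −log10 p over the input and without read numbers, and its depth is therefore unknown. The replicate 2 file held 119066 clusters with read numbers and without comparison to the input. Its clusters held 3 to 8215 reads with a median of 5, and they summed to 1336569 reads when each interval was counted once. Transcripts of erythroid genes were present, with 1553 reads for HBG2 and 1395 for TFRC, whereas GATA1 had 69 reads. Since there is 1 library for each kind of value, no value below has a replicate error, and the intervals given cover counting error only.

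Of the 10 RBM genes, 6 carried at least 1 peak of the authors' reproducible list, which gives 1 value for both libraries, and together they carried 10 of the 866 peaks. RBM3 had 4, RBM25 had 2, and RBM39, RBM5, RBM6 and RBM41 had 1 each, while RBM23, RBM10, RBM4 and RBM15 had none. The share of 60.0% (6 of 10, exact Clopper-Pearson 95% interval 26.2 to 87.8%) stands beside 4.07% of all genes with a replicate 2 cluster, 5.20% of the 8524 genes with clusters in both replicates, and 11.6% of the 3629 genes with at least 63 replicate 2 reads, the number of the lowest of the 10. The genes were picked with these data known, so the contrast is a description. The log2 folds of the 10 peaks over the input ranged from 3.09 to 4.28 with a median of 3.70, close to the 3.80 of all peaks, and only the RBM5 peak was above 4. The next highest, the RBM39 peak at 3.99, stood at the 58.4 percentile of all 866 peaks, so the 10 held few high folds. Their −log10 p ranged from 4.22 in RBM6 to 13.0 in RBM39.

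The number of replicate 2 reads, which is not relative to the input, differed among the genes. RBM39 held 993 replicate 2 reads (exact Poisson 95% interval 932 to 1057), at the 99.2 percentile of all genes. RBM25, RBM4, RBM41, RBM3, RBM5 and RBM6 followed with 270, 259, 258, 219, 215 and 208 reads, and the intervals of neighbours in this order overlapped. Of the RBM4 reads, 164 were also listed under its upstream neighbour RBM14 or the readthrough transcript RBM14-RBM4, and 95 under RBM4 alone. RBM15 with 80 reads, RBM23 with 65 and RBM10 with 63 were lowest, also with overlapping intervals. The lowest gene still stood above the median gene, which had 33 reads. These numbers grow with transcript length and abundance. Per kb of span, RBM3 was the highest with 109 reads, RBM39 had 26.5 and RBM25 13.1, whereas RBM6, with a span of 134792 bp, had 1.54, against a median of 4.02 over all genes. This density depends on the span, which the clusters themselves set. The RBM3 span covered 2016 bp of a gene of 6714 bp, and the RBM39 span 37503 bp of 40966 bp.

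**Figure D1:**
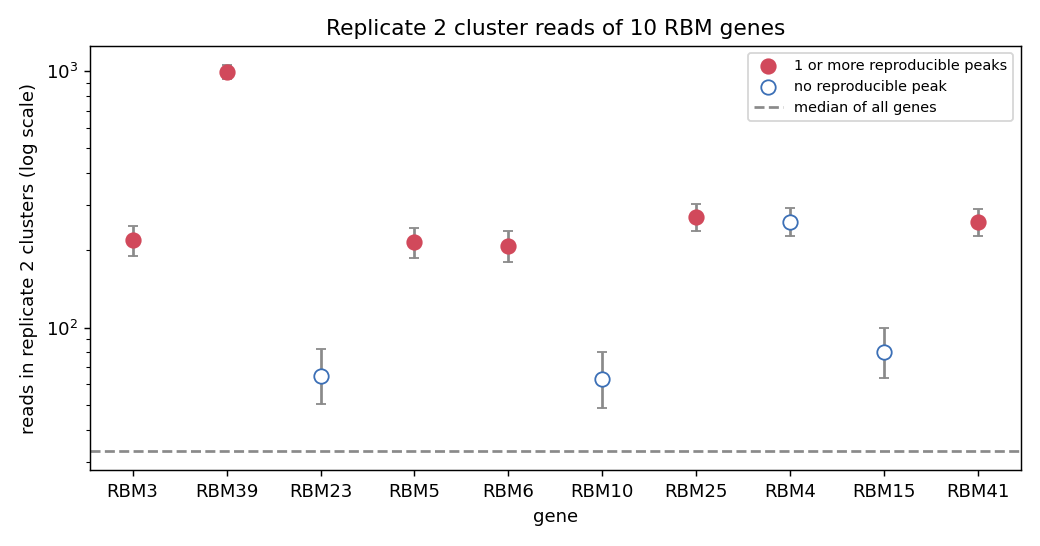
Reads in replicate 2 clusters (log axis) for each of the 10 RBM genes. Points are the summed reads of a gene, bars are exact Poisson 95% intervals and the dashed line is the median of all genes, 33 reads. RBM39 stands apart at 993 reads, and RBM4, with 259 reads, is the only one of the 7 highest genes with no reproducible peak. Of the RBM4 reads, 164 are also listed under RBM14 or RBM14-RBM4. Filled points have a reproducible peak and open points have none.

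In replicate 1, 309 clusters lay in the spans of the 10 genes, and 43 of them had a log2 fold of at least 3 together with a −log10 p of at least 3. This share of 13.9% (exact Clopper-Pearson 95% interval 10.3 to 18.3%) stands beside 5.35% of all replicate 1 clusters. The interval takes each cluster as independent, although clusters past both thresholds lay in runs, such as 8 in RBM6 and 6 in RBM3. The genes were picked with the peaks known, and 9 of the 43 clusters overlapped a reproducible peak, so the contrast is a description. Without RBM3, a case added after the data were seen, the share was 12.3%. Among the clusters of the genes with at least 63 replicate 2 reads it was 6.34%. At least 1 such cluster was found in 7 of the 10 genes, against 16.2% of all genes and 36.6% of those with at least 63 reads. The median log2 fold of the 309 clusters was 2.00, against 1.51 for all clusters.

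The genes were next ordered by their median replicate 1 log2 fold. RBM3 led with 3.51, at the 99.0 percentile of the 5626 genes with 5 or more replicate 1 clusters. RBM5 had 2.51, RBM39 and RBM25 2.36 each, RBM6 2.19, RBM23 1.98, RBM10 1.69 and RBM41 1.51. RBM4 with 0.68 and RBM15 with 0.45 were at the 17.9 and 13.1 percentiles. Exact intervals of the median separated RBM4 (0.19 to 1.19) and RBM15 (−0.40 to 1.28) from RBM3 (1.39 to 4.08), RBM39 (2.10 to 2.51), RBM5 (1.94 to 2.77), RBM6 (1.77 to 2.51), RBM25 (1.77 to 2.65) and RBM10 (1.51 to 2.19), while those of neighbours in the order overlapped. These intervals take each cluster as independent, although clusters past both thresholds lay in runs. The lower part of this order depended on which clusters were counted. Over only the clusters that overlapped a replicate 2 cluster, the median was 1.61 for RBM4 (6 clusters), 1.23 for RBM15 (4 clusters) and 0.87 for RBM23 (3 clusters), so that RBM23 was lowest and RBM4 stood above RBM41 with 1.53 (10 clusters). Most of the 6 RBM4 clusters lay where its span overlaps that of RBM14, so the place of RBM4 in this order rests largely on that part. RBM3 stayed highest with 3.70 (6 clusters).

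**Figure D2:**
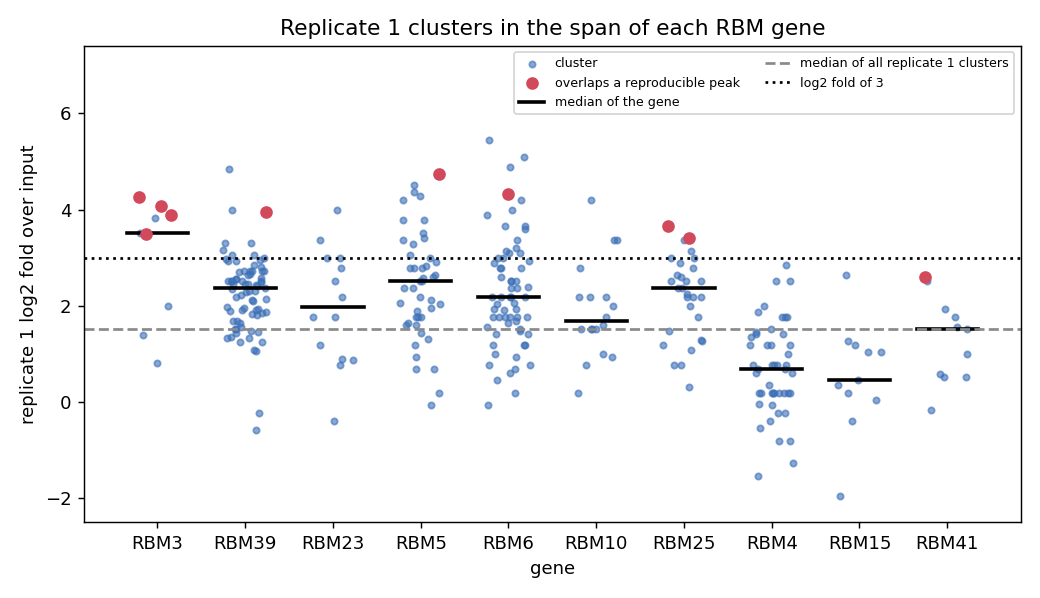
Log2 fold over the input of each replicate 1 cluster in the span of the 10 RBM genes. Points are clusters, red points overlap a reproducible peak, black bars are gene medians, the dashed line is the median of all clusters (1.51) and the dotted line a log2 fold of 3. Most RBM3 clusters lie above 3, and no RBM4, RBM15 or RBM41 cluster reaches it.

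RBM3, a cold-induced RNA-binding protein, had its peaks at the 5’ end. Its 4 peaks lay within 383 bp of chromosome X, from 48434115 to 48434497 on the + strand, and the study placed all of them in the 5’-UTR. From 5’ to 3’, the log2 folds over both replicates were 3.37, 3.09, 3.69 and 3.59. The corresponding replicate 1 clusters had 4.27, 3.50, 3.89 and 4.08, each above the value over both replicates. The replicate 2 clusters held 30, 60, 30 and 26 reads, and the 60 reads (exact Poisson interval 45.8 to 77.2) were the most of any RBM3 cluster. Together these clusters held 146 of the 219 RBM3 reads (66.7%). A further pair of replicate 1 clusters just downstream, with log2 folds of 3.51 and 3.82, had no cluster in replicate 2. Beyond them the replicate 1 folds were 0.80 to 2.00, and the remaining replicate 2 clusters held 14 to 25 reads.

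**Figure D3:**
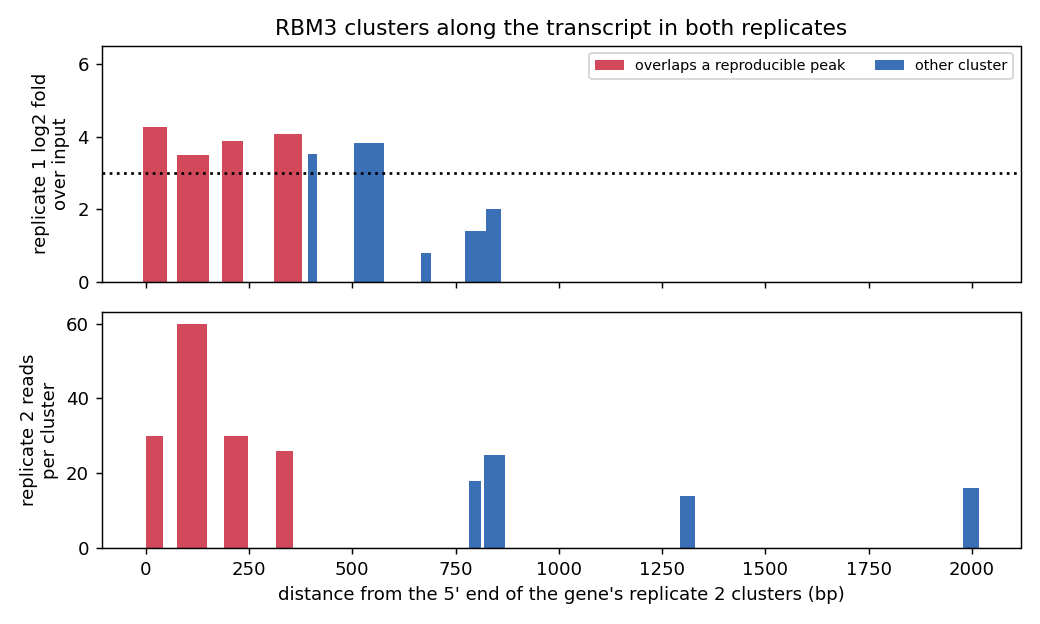
RBM3 clusters by distance in bp from the 5’ end of its replicate 2 clusters. The upper panel shows replicate 1 log2 folds over the input with a dotted line at 3, and the lower panel replicate 2 reads per cluster. Bar widths are cluster widths and red bars overlap a reproducible peak. The 4 red clusters lie at the 5’ end in both replicates.

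RBM39, a U2AF-related splicing factor that sulfonamides such as indisulam send for degradation, was covered by 47 replicate 2 clusters and 75 replicate 1 clusters. Of the replicate 2 clusters, 38 (80.9%) overlapped one of replicate 1, the highest share among the 10 genes, against 31.9% of all replicate 2 clusters. The first 20% of the span, counted from the 5’ end, held 22 clusters and 557 reads, which is 56.1% of the reads of the gene. The cluster with the most reads, 49, lay there (34328471 to 34328563), and of the overlapping replicate 1 clusters the one with the larger −log10 p had a log2 fold of 2.51. The reproducible peak lay elsewhere, 74.6% along the span at 34302106 to 34302159 of chromosome 20 (− strand), and the study assigned it to the CDS with an edge at the 5’-SS. Its log2 fold was 3.99 over both replicates and 3.94 in replicate 1, with 43 reads in replicate 2. The largest replicate 1 fold of the gene, 4.83 at 34329660 to 34329685 near the 5’ end, had no cluster in replicate 2. Of the 8 RBM39 clusters past both thresholds in replicate 1, 2 overlapped a replicate 2 cluster.

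**Figure D4:**
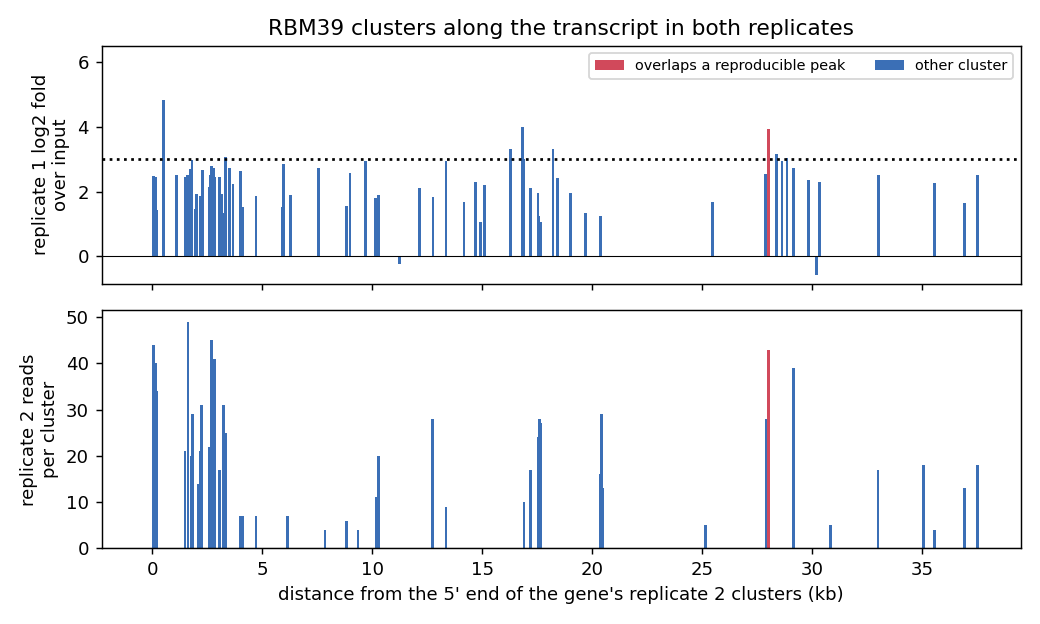
RBM39 clusters by distance in kb from the 5’ end of its replicate 2 clusters, with replicate 1 log2 folds over the input above (dotted line at 3) and replicate 2 reads per cluster below. Narrow clusters are drawn wider than they are so that they can be seen, and the red bars overlap the reproducible peak. Reads gather at the 5’ end, while the peak lies far downstream.

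RBM23, the paralog of RBM39, had far fewer clusters, 14 in each replicate. Of its 14 replicate 2 clusters, 3 (21.4%) overlapped one of replicate 1, against 31.9% of all replicate 2 clusters. With so few clusters, this difference is not read as a trait of RBM23. The cluster with the most reads had 9 (chromosome 14, 23374419 to 23374460) and no counterpart in replicate 1. Its 1 replicate 1 cluster past both thresholds, at 23374996 to 23375071, reached a log2 fold of 4.00 with a −log10 p of 3.55, and the overlapping replicate 2 cluster held 4 reads. Reads per kb of span were 3.65 in RBM23 and 26.5 in RBM39.

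RBM5, RBM6 and RBM10 are related splicing regulators with roles in apoptosis and as tumor suppressors. RBM5 and RBM6 are neighbours on the + strand of chromosome 3, and their spans shared 7218 bp, a segment with no reproducible peak and no replicate 1 cluster past the thresholds. The segment held 14 replicate 1 clusters, which were counted under both genes. Without it, a case added after the data were seen, the median log2 fold was 2.77 for RBM5 and 2.27 for RBM6. The RBM5 peak at 50137778 to 50137858 had the highest log2 fold of the 10, 4.28, with 4.74 in replicate 1 and 15 reads in replicate 2 (exact Poisson interval 8.40 to 24.7). The study assigned it to a 3’-UTR, although it lay 31.2% along the span. It closed a run of 5 replicate 1 clusters past both thresholds within 430 bp, with log2 folds of 3.51 to 4.74, of which 2 overlapped a replicate 2 cluster. The RBM5 cluster with the most replicate 2 reads, 16, lay at 50150857 to 50150969. In replicate 1 its log2 fold was 2.997, just under the threshold of 3.

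RBM6 had 1 peak in its CDS, at 50102496 to 50102560, with a log2 fold of 3.90, 4.32 in replicate 1 and 15 reads in replicate 2. Its strongest replicate 1 signal was a run of 8 clusters past both thresholds over 2996 bp, from 50096046 to 50099041, about 70.9% along the span at the largest fold. That cluster, at 50097478 to 50097549, reached a log2 fold of 5.44 with a −log10 p of 11.2, the largest fold of the 43. Replicate 2 had clusters in the run too, 4 with 30 reads in all, but only 1 of the 8 overlapped one, and none lay in a reproducible peak. The replicate 2 cluster with the most RBM6 reads, 18, lay near the 5’ end at 50004923 to 50004973, where the replicate 1 log2 fold was 1.41. The largest replicate 1 fold and the most replicate 2 reads were thus in different places, though they are different quantities. Along the span, the first 20% held 45.7% of RBM6 reads, with a median replicate 1 log2 fold of 1.72. The fourth such stretch held 32.2% of the reads, a median log2 fold of 3.12 and 12 of the 13 clusters past both thresholds.

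RBM10, on chromosome X, had 13 replicate 2 clusters and 18 in replicate 1, with no reproducible peak. Its replicate 2 cluster with the most reads, 9, lay at the 3’ end (47044896 to 47044939), where the replicate 1 log2 fold was 1.77. The 1 cluster past both thresholds, at 47035307 to 47035379, reached a log2 fold of 4.19 with a −log10 p of 4.15, and met a replicate 2 cluster of 3 reads. RBM10 had 63 reads against 215 for RBM5 and 208 for RBM6, and its share of clusters past both thresholds was 5.56% (interval 0.141 to 27.3%) against 22.2% (11.2 to 37.1%) and 20.3% (11.3 to 32.2%). These intervals overlapped.

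RBM25, which acts on 5’ splice sites such as those of BCL2L1, had a pair of abutting peaks in its CDS on chromosome 14 (+ strand), at 73569959 to 73570053 and 73570054 to 73570105. Their log2 folds were 3.72 and 3.74, against 3.65 and 3.41 in replicate 1, so that here the value over both replicates was the higher. The overlapping replicate 2 clusters held 27 and 34 reads, the largest numbers of the gene, and together 22.6% of its 270 reads. Reads were few at the 5’ end, with 1.11% in the first 20% of the span, and gathered in the middle stretch (58.5%) and the last (33.3%). All 4 RBM25 clusters past both thresholds in replicate 1 overlapped a replicate 2 cluster, against 37.9% of all such clusters. Of the 4, 2 overlapped the reproducible peaks, which rest on both replicates, so the overlap of these was given by the choice of gene.

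RBM4, which regulates alternative splicing and translation, had 259 reads and a median replicate 1 log2 fold of 0.68, or 1.61 over the 6 clusters that overlapped replicate 2. None of its 47 replicate 1 clusters passed both thresholds (0%, exact Clopper-Pearson upper bound 7.55%), and 10 of them had a log2 fold below 0. Of its 39 replicate 2 clusters, 19 with 164 of the 259 reads were also listed under RBM14 or RBM14-RBM4, a gene upstream and the readthrough transcript of both. With only the 20 intervals listed under RBM4 alone, a case added after the data were seen, 95 reads remained. Reads that RBM4 shares with its close paralog RBM4B cannot be told apart here. Its cluster with the most reads, 24 at 66384633 to 66384704 on chromosome 11, was among those at the RBM14 end, and had a log2 fold of 2.51 in replicate 1. In the part of the span 3’ of RBM14, the median replicate 1 log2 fold was 0.77. Most of the 6 clusters behind the 1.61 lay outside that part, where the span overlaps that of RBM14.

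RBM15, a subunit of the m6A methyltransferase complex and a fusion partner in megakaryoblastic leukemia, had 10 replicate 2 clusters and 11 in replicate 1. None of the 11 passed both thresholds, which with so few clusters allows a share of up to 28.5%. The replicate 2 cluster with the most reads, 17, lay at 110882466 to 110882551 on chromosome 1, 162 bp from the 5’ end of the span. It met the largest replicate 1 fold of the gene, 2.65, with a −log10 p of 2.03.

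RBM41, a protein of the minor spliceosome, was the one gene with more clusters in replicate 2 than in replicate 1, 23 against 11, a ratio of 0.48 where the whole lists gave 1.15. The first 20% of its span held 174 of its 258 reads (67.4%). Its peak at 106359909 to 106359977 of chromosome X (− strand), in the CDS, had a log2 fold of 3.41 over both replicates. The overlapping replicate 1 cluster reached 2.60, so this was the only one of the 10 peaks with a replicate 1 fold below 3, and replicate 2 had 25 reads there. The cluster with the most RBM41 reads, 45 at 106359198 to 106359286, was outside the peak, with a log2 fold of 1.55 in replicate 1.

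Of the 43 replicate 1 clusters past both thresholds, 19 (44.2%, exact Clopper-Pearson 95% interval 29.1 to 60.1%) overlapped a replicate 2 cluster, and 9 overlapped a reproducible peak. The share over all replicate 1 clusters past the thresholds was 37.9%, and 42.1% in the genes with at least 63 reads, both within that interval. Of the 24 clusters with no counterpart, 10 lay in RBM6, 6 in RBM5, 6 in RBM39 and 2 in RBM3. They had a median −log10 p of 5.86 and a median length of 44 bp, against 7.21 and 60 bp for the 19. For 42 of the 43, the same pair of fold and −log10 p occurred at least once more among all replicate 1 clusters. The pair of 4.00 and 3.55, seen in RBM39, RBM23 and RBM6, occurred 304 times, and in RBM39 it belonged to a cluster of 2 bp. The number of reads behind these clusters is unknown, since replicate 1 has no read numbers.

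**Figure D5:**
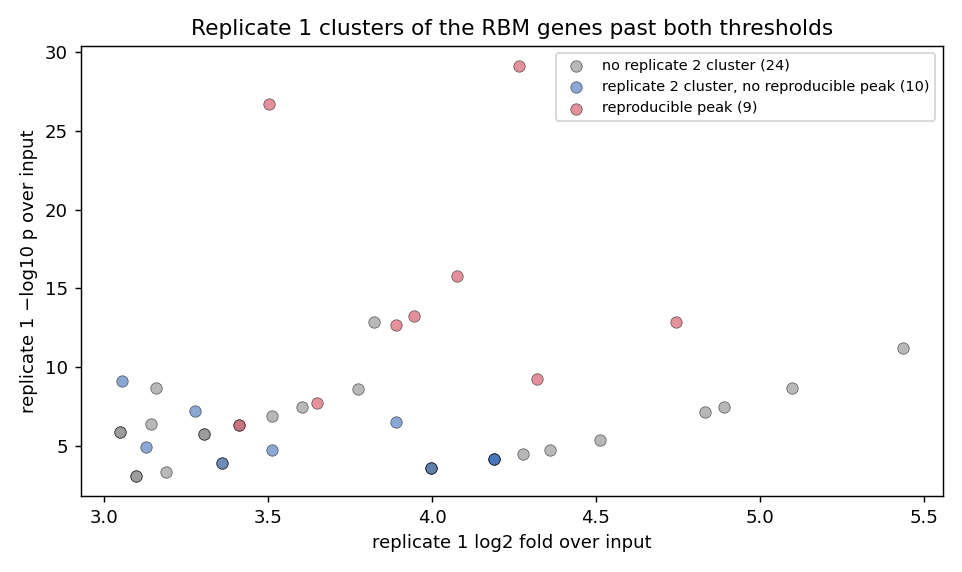
Replicate 1 log2 fold against −log10 p for the 43 clusters of the RBM genes past both thresholds, colored by what lay at the same place in replicate 2 and in the reproducible list. Clusters with equal values coincide. The largest fold, 5.44 in RBM6, had no replicate 2 cluster, and the 9 red points include the largest −log10 p, 29.1 in RBM3.

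Over the 10 genes, 114 of 230 replicate 2 clusters overlapped a replicate 1 cluster (49.6%, exact Clopper-Pearson interval 42.9 to 56.2%), above the 31.9% of all clusters and the 35.7% in genes with at least 63 reads. On the opposite strand the number was 0. The share ran from 15.4% in RBM4 and 21.4% in RBM23 up to 75.0% in RBM3 and 80.9% in RBM39. RBM39 supplied 38 of the 114, and the interval takes each cluster as independent. The genes were picked with the reproducible peaks known, and these peaks rest on both replicates, so the contrast is a description. Reads per gene also differed, with a median of 217 in the 10 genes and 129 in those with at least 63 reads.

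The other RBM genes served as a comparison. Of 33 such genes by symbol, 21 had a replicate 2 cluster and none had a reproducible peak (0 of 21, exact Clopper-Pearson upper bound 16.1%). Their replicate 1 clusters passed both thresholds in 15 of 399 cases (3.76%, interval 2.12 to 6.12%), beside 13.9% for the 10 genes. The 21 genes had a median of 40 replicate 2 reads per gene, against 217 for the 10 genes. Among those with most reads, RBM33 had 553, RBMX 472 and RBM26 246, within the range of 208 to 993 seen in the 6 genes with peaks. RBM33 had 8 clusters past the thresholds of 101, RBM26 2 of 61 and RBMX 0 of 17. RBM22, named after its values were seen, had a median log2 fold of 3.19 and 3 of 19 clusters past the thresholds, with no peak at 33 reads. Among 7 genes of U2 snRNP recognition and its partners, 4 had peaks, namely U2AF1 with 6, RBM17 with 2, and SF3B1 and U2AF2 with 1 each, while U2SURP had none at 692 reads. Their share of clusters past the thresholds, 18.1% (interval 13.5 to 23.4%), overlapped that of the 10 genes. Since the 10 genes were picked with the peaks known, the contrast with the other RBM genes is a description.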

How the data were processed

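The authors processed the reads with cutadapt, STAR and a published eCLIP pipeline (parameters not given in the sources used here). No build was named, and positions on chromosome 1 exceed its hg38 length, so hg19 was assumed. The deposited replicate 1 and reproducible lists give −log10 p and log2 fold over the size-matched input, and the deposited replicate 2 list gives a peak caller p-value of at most 0.05 not relative to the input, with gene and reads in the cluster name. The −log10 p of replicate 1 ends at 400. Replicates are numbered 1 and 2 as in the sample descriptions; the titles number them 2 and 3. The input's own files were not analysed here.

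Symbols were matched to Ensembl genes with GENCODE v44. Strand-matched overlaps of 1 bp or more were found with bedtools 2.31.1, and a peak overlapping a span counted as in it (the first RBM3 peak starts just before its span). Peak values were paired with the cluster of largest overlap. Thresholds were a log2 fold of 3 and a −log10 p of 3. Intervals used scipy 1.17.1. No test was run, since no group had replicated values. The planned background for peaks was genes with clusters in both replicates. The share over all genes with a replicate 2 cluster was used as well, and both are given. The members, gene lists and alternatives were chosen with earlier results of these data known. Named clusters were every peak, the replicate 2 cluster with most reads and the replicate 1 cluster with the largest fold at a −log10 p of at least 3. Of the comparison genes, those with a peak and the 3 with most reads were named. Regions of peaks are those of the study's peak table. Assignment was tested on simulated data, where all 300 genes received their true number of clusters. Sequences of clusters were not printed, since an hg19 genome was not used here. Sequences are shown for the RBM39 exon in the most NMD transcripts and for the RBM25 exon, and those of the other annotated exons are not reported here.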

Additional observations from a re-analysis of the deposited data

How the results depend on the processing

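With reproducible peaks of log2 fold at least 4, 1 gene (RBM5) and 1 peak were left of 6 and 10. With a −log10 p of at least 5, 5 genes and 9 peaks were left, and asking for 50% of the peak in a replicate 2 cluster left the numbers as they were. The share of replicate 1 clusters past both thresholds fell from 13.9% to 4.53% at a log2 fold of at least 4 and to 9.06% at a −log10 p of at least 5, by construction of the stricter thresholds. The share over all replicate 1 clusters was computed only at a log2 fold of 3 and a −log10 p of 3. The stricter values therefore have no background beside them. The median log2 fold rose from 2.00 to 2.84 over clusters with a −log10 p of at least 3. The genes held 0.197% of replicate 2 reads, and 0.224% with MALAT1 left out of the total. The share of replicate 2 clusters met by replicate 1 was 41.7% when 50% of the cluster had to be covered, and 0% on the opposite strand. At a caller p of at most 1e-10, no reads were left for RBM5, RBM10, RBM15 and RBM23, 24 for RBM4, 60 for RBM6 and 137 for RBM41. No alternative changed the sign of a value. Leaving out a replicate gave no value, since each value rests on 1 replicate or needs both. No paired analysis was possible because the RBM17 libraries form 1 group with 1 input. Over only the clusters that overlapped a replicate 2 cluster, the median log2 fold went from 0.68 to 1.61 in RBM4, from 0.45 to 1.23 in RBM15, from 1.98 to 0.87 in RBM23 and from 2.36 to 2.94 in RBM25, and the cause was not tested. For RBM4, most of the clusters that overlapped a replicate 2 cluster lay where its span overlaps that of RBM14. RBM3, RBM10, RBM15, RBM23 and RBM41 had 9 to 18 replicate 1 clusters each, so their shares and medians have wide intervals.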
